A study of Homo sapiens with 12 samples.

Results

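The messenger RNA of 42 genes known to respond to oestrogen in breast cancer cells was followed in BT474 cells, an established breast cancer line that is positive for hormone receptors and carries an amplified HER2 gene. The genes were chosen by name from general knowledge of oestrogen receptor (ER) targets, though with earlier results of these data already known. Each of the 42 was found among the 27814 named genes of the read count table. All 42 also passed the filter on low counts, which left 16208 genes. In 40 of them the mean reached 1 CPM, a count scaled to the size of its library, in at least 1 group, and the other 2, PDZK1 and ELOVL2, stayed below it everywhere. No member had a library at 0, and the counts per library ran from 4 to 42164.

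The 12 libraries formed 4 groups of 3. They were cells labelled BRD8 KO after neratinib, parental cells after neratinib, cells labelled BRD8 KO in DMSO, and parental cells in DMSO, where DMSO is the solvent control. Neratinib, which binds HER2 and related kinases covalently and blocks them, was given at 200 nM for 4 h. All groups were grown in the same medium with 10% fetal bovine serum, and the labels name neither an added oestrogen nor an ER blocker in any of them. The labels do not state where BRD8 was edited, whether 1 clone or many was used, or whether replicates were separate cultures. The p-values therefore set each difference only against the spread between these libraries, and that spread may be technical.

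ERα, the protein of ESR1, is a transcription factor that oestrogen switches on. It binds oestrogen response elements, which are inverted repeats of the half-site GGTCA, often far from the gene it controls, and it also acts through other bound factors such as AP-1. FOXA1 and GATA3 open chromatin for it, and coactivators and corepressors, NRIP1 among them, set the output. TFF1, GREB1 and the progesterone receptor gene PGR are textbook readouts of ERα activity in luminal breast cancer. HER2 signalling is known to affect ERα activity in cells that carry both receptors.

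Each library held between 32471198 and 44726160 counts of named genes. Values below are CPM after edgeR's TMM scaling, with the libraries of a group in the order 1, 2 and 3. BRD8, a bromodomain subunit of the EP400-TIP60 complex, was measured to check the genotype labels. It stood at 156 ± 2.44 CPM in KO-labelled against 236 ± 5.23 CPM in parental cells in neratinib, and at 67.4 ± 1.39 against 64.1 ± 0.706 CPM in DMSO (SD, n = 3 each). The log2 fold changes of BRD8, KO-labelled over parental, were -0.59 (SE 0.021) in neratinib and 0.071 (SE 0.027) in DMSO, and with neratinib they were 1.21 (SE 0.024) in KO-labelled and 1.88 (SE 0.024) in parental cells, with a difference between these responses of -0.66 (SE 0.034). Since BRD8 mRNA was not lower in DMSO, the cells are called KO-labelled throughout. As a check of the drug, the ERK phosphatase gene DUSP6 had log2 fold changes of -1.17 in KO-labelled and -4.12 in parental cells with neratinib, and the cyclin D1 gene CCND1 had -3.21 and -3.74. DUSP6 thus fell less in KO-labelled cells. Of 15 tested genes of ERK feedback and output, 11 had a called positive difference, KO-labelled response minus parental, and 1 a negative one (all genes 21.5% and 24.6%). The part of this in the neratinib results below was not tested. Of 12 luminal epithelial markers, none fell below 1 CPM in any group. Their summed level was 16716 to 16989 CPM in KO-labelled and 16692 to 16909.8 CPM in parental neratinib libraries. It was 19197 to 19518 and 18209 to 18406 CPM in KO-labelled and parental DMSO libraries, with ERBB2 and KRT8 holding most of it. Single markers differed, with 6 called higher and 6 lower in KO-labelled cells in DMSO (all genes 36% and 35.6%). In neratinib 4 were called higher and 7 lower (all genes 34.7% and 36.9%). Of 22 markers of blood, stromal, endothelial, basal and muscle cells, 12 had too few counts to be tested. Of the 10 tested, 9 were called higher in KO-labelled cells in DMSO and 9 in neratinib, against 36% and 34.7% of all genes. Most of the 22 were low, with 15 below 1 CPM in KO-labelled DMSO cells and 17 in each other group. The summed level of the 22 was 182 to 185 CPM in KO-labelled and 122 to 128 CPM in parental neratinib libraries. It was 140.1 to 148 and 100.4 to 107 CPM in the DMSO libraries, with COL1A1 and VWF holding most of it. CD3E, PTPRC, LUM and PDGFRB had no count in parental DMSO libraries, and the part of these markers in the results below was not tested. In bulk RNA, fewer cells of a type and less RNA per cell cannot be told apart.

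The gene of the receptor itself, ESR1, differed little between genotypes in DMSO and rose with neratinib in both. It stood at 43.1, 44.5 and 42.7 CPM in KO-labelled neratinib and at 60.3, 60.3 and 60.4 CPM in parental neratinib libraries. Its DMSO values were 28.7, 28.7 and 28.5 CPM in KO-labelled and 30.8, 30.9 and 31.0 CPM in parental libraries. Its level was thus highest in parental cells given neratinib, and no group overlapped another that it was compared with. The log2 fold changes of ESR1 were -0.47 (SE 0.030) for KO-labelled over parental cells in neratinib and -0.11 (SE 0.036) in DMSO. With neratinib over DMSO they were 0.60 (SE 0.034) in KO-labelled and 0.96 (SE 0.031) in parental cells. PGR, the ER target used in pathology, was at 73.2, 78.9 and 74.6 CPM in KO-labelled neratinib and at 194, 196 and 188 CPM in parental neratinib libraries. It was at 35.0, 34.8 and 34.4 CPM in KO-labelled DMSO and at 80.5, 79.5 and 79.2 CPM in parental DMSO libraries. PGR was lower in KO-labelled cells under both treatments, by 1.35 (neratinib) and 1.20 (DMSO) on the log2 scale, and rose with neratinib by 1.12 in KO-labelled and 1.27 in parental cells. All 8 of these differences were called, at a Benjamini-Hochberg adjusted p of 0.00497 or less in edgeR's quasi-likelihood test.

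KO-labelled cells held less of most of the 42 target mRNAs than parental cells, TFF1 and GREB1 among them. Neratinib lowered most of the 42 in both genotypes, but with it GREB1 rose while TFF1 fell. In DMSO, 7 members were at least 2-fold lower and 2 at least 2-fold higher in KO-labelled cells (21.4% of the 42 in either direction, against 12.4% of all genes tested, 3.46% lower and 8.89% higher). In neratinib these counts were 10 and 4 (33.3%, against 11.2%, 3.25% lower and 7.92% higher). Neratinib lowered 9 members at least 2-fold and raised 1 in KO-labelled cells (23.8%, against 14.7% of all genes, 5.3% lower and 9.42% higher). It lowered 12 and raised 0 at least 2-fold in parental cells (28.6%, against 20.8%, 7.78% lower and 13% higher). At any size, 24 members were lower and 12 higher in KO-labelled cells in DMSO, with 35.6% and 36% of all genes called lower and higher (71.6% in either direction). In neratinib 22 were lower and 13 higher, against 36.9% and 34.7% of all genes (71.6% in either direction). Neratinib lowered 25 and raised 9 members in KO-labelled cells, against 38.4% and 38.9% of all genes (77.2% in either direction). It lowered 27 and raised 11 in parental cells, against 38.9% and 41.8% (80.7% in either direction). The spread between replicates was so small, with a common biological coefficient of variation of 1.86%, that most genes of the table passed the test, and a call at any size says little about these genes as a group. The median log2 fold change of the members was -0.19 (KO-labelled over parental, neratinib), -0.17 (the same, DMSO), -0.45 (neratinib over DMSO, KO-labelled) and -0.33 (the same, parental). Over all genes tested these medians lay at -0.019, 0.0022, 0.017 and 0.039. Since the members were chosen with earlier results of these data known, these contrasts with all genes describe this list only. The 42 genes took 0.207% ± 0.000252 of all counts in KO-labelled and 0.251% ± 0.00357 in parental neratinib libraries, and 0.291% ± 0.00389 in the DMSO libraries labelled KO and 0.348% ± 0.00349 in the parental ones (SD, n = 3 each). AGR2 and TFF3 supplied a large part of these counts. The other 40 genes took 0.124% ± 0.000476 and 0.160% ± 0.00138 in neratinib, KO-labelled and parental, and 0.165% ± 0.00121 and 0.199% ± 0.000643 in DMSO. A change in share of this kind follows the most abundant genes, and the members differed widely in direction, as the plot of KO effects by role shows.

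**Figure D1:**
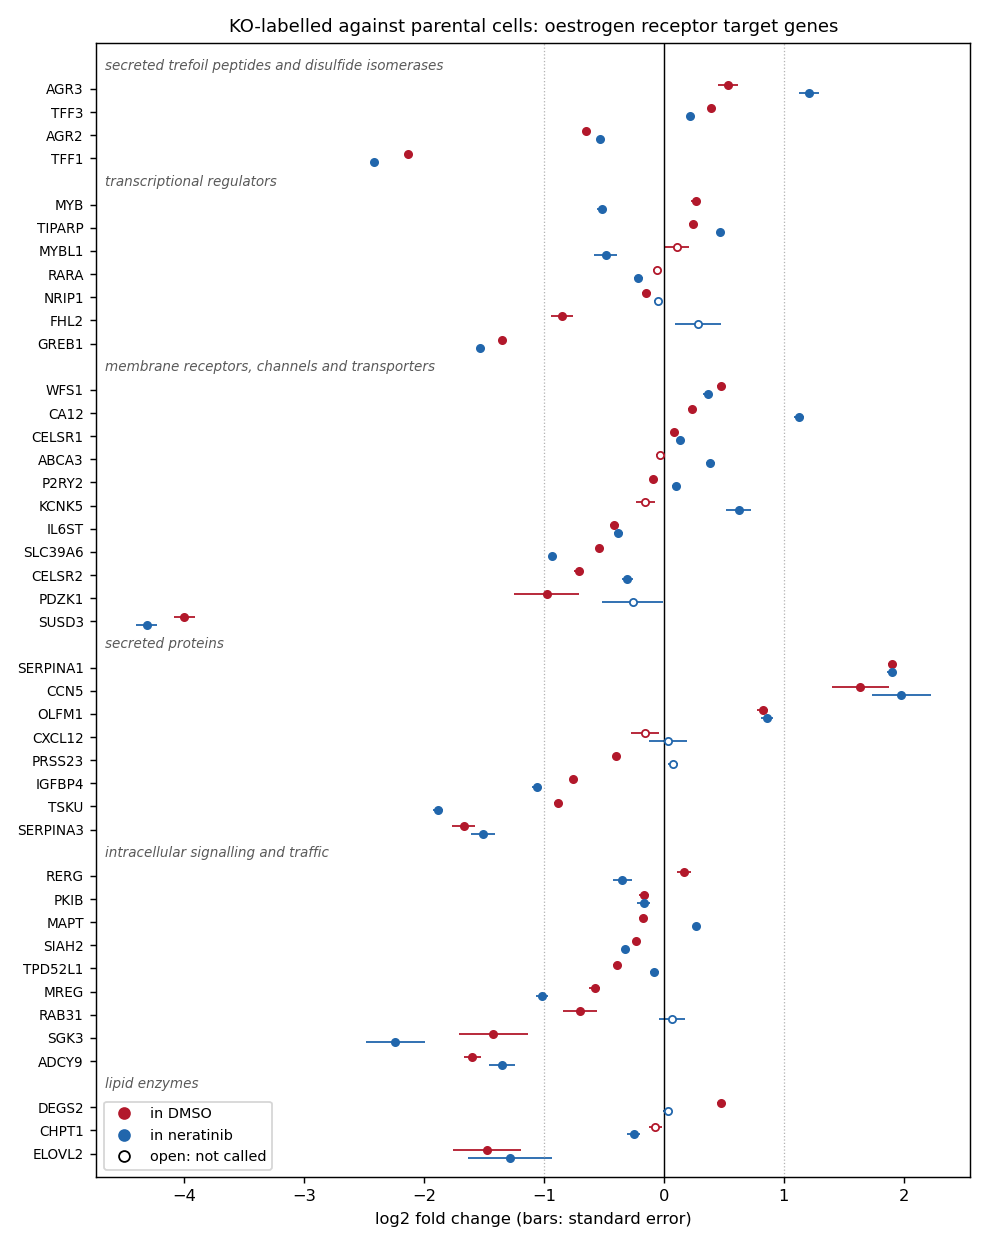
Log2 fold change of KO-labelled over parental cells for the 42 genes (x axis), ordered by role, with red points for DMSO, blue points for neratinib, bars for the standard error and open points for differences that were not called. SUSD3 lies farthest to the left at -4.0 in DMSO and -4.31 in neratinib, and SERPINA1 and CCN5 farthest to the right.

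The secreted trefoil peptides TFF1 and TFF3, which protect mucosal surfaces, moved in opposite directions in KO-labelled cells although their genes lie only 46.6 kb apart on chromosome 21. TFF1 (chr21:42362282-42366594, minus strand, GENCODE 29, GRCh38) was at 23.8, 22.3 and 22.9 CPM in KO-labelled neratinib and at 123, 119.7 and 124 CPM in parental neratinib libraries. Without the drug it stood at 41.1, 43.0 and 42.2 CPM in KO-labelled and at 183, 185 and 185 CPM in parental libraries. The 4 groups did not overlap, and both KO-labelled groups lay under both parental ones. The log2 fold change of TFF1 was -2.41 (SE 0.031) for KO-labelled over parental cells in neratinib and -2.13 (SE 0.026) in DMSO. With neratinib it fell by 0.87 in KO-labelled and by 0.59 in parental cells on the log2 scale. TFF3 was higher in KO-labelled cells, at 501 ± 4.89 against 431 ± 7.79 CPM in neratinib and at 598 ± 13.8 against 457 ± 12.5 CPM in DMSO (SD, n = 3 each), with log2 fold changes of 0.22 and 0.39. The fall of TFF3 with neratinib was called in KO-labelled (-0.26) and in parental cells (-0.085). The call in parental cells was lost when libraries were scaled by their totals or when genes under a mean of 5 CPM were left out. Apart from that last one, the differences of both genes had an adjusted p of 7.78e-13 or less in edgeR's quasi-likelihood test.

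The neighbouring genes AGR2 and AGR3 on chromosome 7, 26.0 kb apart, encode disulfide isomerases of secretory cells. They too went opposite ways. AGR2 was at 319 ± 0.563 CPM in KO-labelled and 462 ± 8.56 CPM in parental cells in neratinib, and at 684 ± 14.8 and 1074 ± 11.4 CPM in DMSO (SD, n = 3 each). It was lower in KO-labelled cells by 0.54 (neratinib) and 0.65 (DMSO) on the log2 scale and fell with neratinib by 1.10 in KO-labelled and 1.22 in parental cells. AGR3 was at 8.64, 9.14 and 9.11 CPM in KO-labelled neratinib and at 4.14, 4.08 and 3.38 CPM in parental neratinib libraries. It was at 6.97, 7.37 and 7.97 CPM in KO-labelled DMSO and at 4.93, 5.39 and 5.02 CPM in parental DMSO libraries. AGR3 was thus higher in KO-labelled cells under both treatments, without overlap, by 1.21 (SE 0.084) in neratinib and 0.54 (SE 0.082) in DMSO on the log2 scale. Neratinib raised AGR3 in KO-labelled cells by 0.28 and lowered it in parental cells by 0.40, and the difference between these responses was 0.68 (SE 0.12) on the log2 scale. Each difference named for the pair had an adjusted p of 0.000808 or less in edgeR's quasi-likelihood test. The promoter windows of this pair, 250 bases before to 50 after the start that RefSeq gives (GRCh38.p14), are shown to set side by side the start regions of neighbours that changed in opposite directions. The AGR2 window is chr7:16804950-16805249 on the minus strand and that of AGR3 chr7:16881934-16882233 on the minus strand, written 5′ to 3′ with GGTCA half-sites on either strand in capitals.
AGR2: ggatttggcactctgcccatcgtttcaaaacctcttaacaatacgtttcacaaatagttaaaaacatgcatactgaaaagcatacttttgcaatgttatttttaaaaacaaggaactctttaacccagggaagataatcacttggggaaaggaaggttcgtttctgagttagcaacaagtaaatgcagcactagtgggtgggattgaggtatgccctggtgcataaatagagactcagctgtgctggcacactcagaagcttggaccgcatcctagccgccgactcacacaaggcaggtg
AGR3: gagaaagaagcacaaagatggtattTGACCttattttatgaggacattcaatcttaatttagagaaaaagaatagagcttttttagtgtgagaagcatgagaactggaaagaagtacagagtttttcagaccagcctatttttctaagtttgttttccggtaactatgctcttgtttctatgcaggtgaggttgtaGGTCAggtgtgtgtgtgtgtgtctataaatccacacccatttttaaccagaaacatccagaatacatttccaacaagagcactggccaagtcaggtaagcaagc
The AGR3 window held 2 half-sites, which begin 225 and 54 bases before the start, and the AGR2 window held none.

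Such windows were at hand for 31 of the 42 genes. TFF1, TFF3, GREB1, MYBL1, P2RY2, CELSR1, CCN5, RERG, ADCY9, SGK3 and MAPT had no entry. The full oestrogen response element, GGTCA then any 3 bases then TGACC, was in none of the 31 windows, in 0.0659% of the 27303 windows of all genes and in 0.0163% of the 12304 windows of genes that passed the count filter. The half-site GGTCA, counted on both strands, was in 12 of the 31 (38.7%), against 37.8% of all windows and 34.7% of those of genes past the filter, so the members' windows held it about as often as windows in general. The AP-1 site TGANTCA was in none of the 31, in 7.76% of all and in 4.8% of those of genes past the filter. No match says only that these letters are not in these 300 bases.

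Among the transcriptional regulators, GREB1, an ERα cofactor and target, was lower in KO-labelled cells, and it rose with neratinib. GREB1 was at 47.5, 49.8 and 51.1 CPM in KO-labelled neratinib and at 143, 143 and 144 CPM in parental neratinib libraries. Its DMSO values were 35.3, 35.7 and 34.9 CPM in KO-labelled and 90.9, 89.8 and 89.5 CPM in parental libraries. All 4 groups were separate, and the parental neratinib group was the highest, as for ESR1. Its log2 fold changes were -1.53 (SE 0.026) and -1.35 (SE 0.029) for KO-labelled over parental cells in neratinib and in DMSO. With neratinib GREB1 rose by 0.49 (SE 0.032) in KO-labelled and 0.67 (SE 0.024) in parental cells on the log2 scale, opposite to the fall of TFF1. MYB, a proto-oncogene transcription factor, was at 21.0, 21.9 and 21.9 CPM in KO-labelled neratinib and at 31.3, 30.1 and 31.6 CPM in parental neratinib libraries. In DMSO MYB was at 39.2, 39.3 and 40.4 CPM in KO-labelled and at 32.5, 33.6 and 32.9 CPM in parental libraries. The order of the genotypes was therefore reversed between treatments, with MYB 0.26 (SE 0.035) higher in KO-labelled cells in DMSO on the log2 scale and a log2 fold change of -0.52 (SE 0.040) in neratinib. Neratinib lowered MYB by 0.87 in KO-labelled cells, while the change in parental cells, -0.088, was called or not depending on the scaling, the filter and the libraries used. The related gene MYBL1 was at 4.73, 4.94 and 4.47 CPM in KO-labelled neratinib and at 6.02, 6.92 and 7.04 CPM in parental neratinib libraries. It was at 4.54, 3.91 and 4.38 CPM in KO-labelled DMSO and at 4.63, 3.70 and 3.51 CPM in parental DMSO libraries, where the groups overlapped. MYBL1 rose with neratinib in parental cells by 0.74 (SE 0.096) and was lower in KO-labelled than in parental cells in neratinib (log2 fold change -0.49, SE 0.093). Its changes in DMSO between genotypes, 0.11 (SE 0.11), and with neratinib in KO-labelled cells, 0.15 (SE 0.10), were not called. The differences called for GREB1, MYB between genotypes and in KO-labelled cells, and MYBL1 had an adjusted p of 1.18e-05 or less in edgeR's quasi-likelihood test.

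FHL2, a LIM-domain cofactor, had the deepest fall with neratinib of all 42 genes in parental cells. It was at 1.06, 1.13 and 0.894 CPM in KO-labelled neratinib and at 0.851, 0.966 and 0.753 CPM in parental neratinib libraries. Without the drug it stood at 3.6, 3.30 and 3.74 CPM in KO-labelled and at 6.26, 6.63 and 6.18 CPM in parental libraries. The genotypes were apart in DMSO and overlapped in neratinib. FHL2 fell by 1.76 (SE 0.14) in KO-labelled and by 2.89 (SE 0.13) in parental cells on the log2 scale, and it was lower in KO-labelled cells in DMSO by 0.85 (SE 0.093, adjusted p of 6.22e-11 or less in edgeR's quasi-likelihood test). TIPARP, a mono-ADP-ribosyltransferase, was at 74.8, 77.1 and 78.4 CPM in KO-labelled neratinib and at 55.9, 54.5 and 55.6 CPM in parental neratinib libraries. It was at 39.5, 41.1 and 40.1 CPM in KO-labelled DMSO and at 33.6, 33.5 and 34.9 CPM in parental DMSO libraries. TIPARP was higher in KO-labelled cells under both treatments, by 0.47 and 0.24 (neratinib and DMSO, log2), and rose with neratinib by 0.93 in KO-labelled and 0.70 in parental cells. NRIP1, a corepressor of nuclear receptors, was at 48.4, 46.5 and 44.7 CPM in KO-labelled neratinib and at 48.4, 47.2 and 48.9 CPM in parental neratinib libraries, which overlapped. In DMSO NRIP1 was at 38.6, 36.6 and 34.5 CPM in KO-labelled and at 40.8, 40.2 and 40.8 CPM in parental libraries. It rose with neratinib by 0.34 in KO-labelled and 0.25 in parental cells on the log2 scale. The retinoic acid receptor gene RARA fell with neratinib by 0.51 and 0.35, KO-labelled and parental. RARA was lower in KO-labelled cells in neratinib (-0.21) and not called in DMSO (-0.054, but called without parental DMSO replicate 3), with 11.8% of its exon bases shared with the antisense gene RARA-AS1. The calls of TIPARP, NRIP1 with neratinib and RARA had an adjusted p of 1.96e-06 or less in edgeR's quasi-likelihood test.

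**Figure D2:**
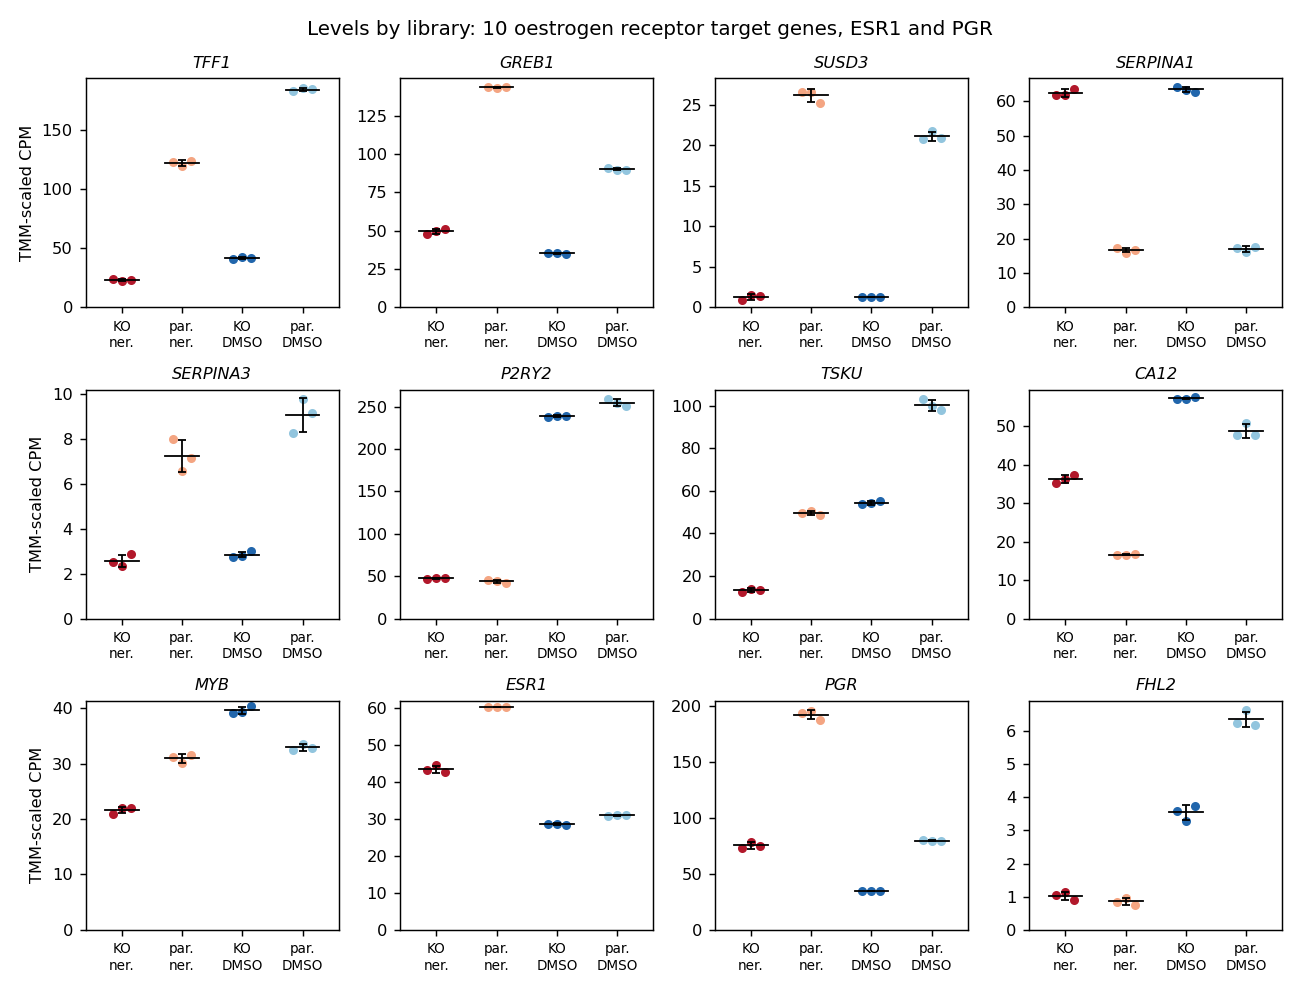
TMM-scaled CPM (y axis, from 0) in each library of KO-labelled neratinib, parental neratinib, KO-labelled DMSO and parental DMSO cells for 10 members and for ESR1 and PGR. Points are libraries, horizontal lines are means and bars are SDs (n = 3); GREB1, ESR1 and PGR were highest in parental neratinib libraries, while TFF1 was highest in parental DMSO libraries.

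Of the membrane proteins, SUSD3, a sushi-domain surface protein, had the largest genotype difference of the 42 genes. It was at 0.887, 1.56 and 1.42 CPM in KO-labelled neratinib and at 26.6, 26.6 and 25.2 CPM in parental neratinib libraries. In DMSO SUSD3 was at 1.34, 1.32 and 1.29 CPM in KO-labelled and at 20.8, 21.7 and 20.8 CPM in parental libraries. Both KO-labelled groups lay far under both parental ones, and the 42 to 58 counts per KO-labelled DMSO library compare with 789 to 825 per parental DMSO library. The log2 fold changes were -4.31 (SE 0.087) in neratinib and -4.0 (SE 0.090) in DMSO. The rise with neratinib was called in parental cells (0.31, SE 0.049) and not in KO-labelled cells (-0.0060, SE 0.17), and the difference between the responses, -0.32 (SE 0.18), was called only without KO-labelled neratinib replicate 2. CA12, a membrane carbonic anhydrase, was at 35.2, 36.2 and 37.3 CPM in KO-labelled neratinib and at 16.6, 16.5 and 16.7 CPM in parental neratinib libraries. In DMSO CA12 was at 57.1, 57.0 and 57.5 CPM in KO-labelled and at 47.8, 50.8 and 47.6 CPM in parental libraries. It was higher in KO-labelled cells under both treatments, by 1.13 (SE 0.041) in neratinib and 0.23 (SE 0.031) in DMSO on the log2 scale. Neratinib lowered CA12 in both genotypes, by 0.66 (SE 0.033) in KO-labelled and 1.55 (SE 0.039) in parental cells. The differences called for SUSD3 and CA12 had an adjusted p of 2.49e-07 or less in edgeR's quasi-likelihood test. The windows of both genes are shown as the members of this role with the largest loss and the largest gain in KO-labelled cells in neratinib. That of SUSD3 is chr9:93058451-93058750 on the plus strand and that of CA12 chr15:63381797-63382096 on the minus strand (GRCh38.p14, RefSeq), 5′ to 3′ with GGTCA half-sites of either strand in capitals.
SUSD3: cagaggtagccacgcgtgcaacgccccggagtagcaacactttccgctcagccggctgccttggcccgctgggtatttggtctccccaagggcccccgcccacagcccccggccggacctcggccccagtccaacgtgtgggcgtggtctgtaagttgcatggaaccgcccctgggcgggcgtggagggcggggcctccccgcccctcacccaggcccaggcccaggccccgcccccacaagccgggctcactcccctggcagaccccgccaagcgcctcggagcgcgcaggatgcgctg
CA12: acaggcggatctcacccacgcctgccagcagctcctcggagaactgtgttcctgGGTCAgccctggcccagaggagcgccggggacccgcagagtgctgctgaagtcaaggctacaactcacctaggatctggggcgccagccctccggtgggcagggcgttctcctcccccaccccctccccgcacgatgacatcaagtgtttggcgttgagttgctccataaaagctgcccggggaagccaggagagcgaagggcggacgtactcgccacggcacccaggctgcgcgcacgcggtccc
CA12 held a half-site that begins 196 bases before the start, and SUSD3 held none.

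P2RY2, a receptor for extracellular nucleotides, changed mainly with the drug. It was at 46.9, 47.6 and 47.6 CPM in KO-labelled neratinib and at 45.6, 44.8 and 42.2 CPM in parental neratinib libraries. In DMSO it was at 237, 239 and 239 CPM in KO-labelled and at 259, 254 and 251 CPM in parental libraries. P2RY2 fell by 2.33 (SE 0.025) in KO-labelled and 2.53 (SE 0.025) in parental cells on the log2 scale, while its genotype differences were 0.098 in neratinib and -0.094 in DMSO. KCNK5, a background potassium channel, was at 5.50, 4.80 and 4.39 CPM in KO-labelled neratinib and at 3.14, 3.44 and 2.96 CPM in parental neratinib libraries. In DMSO KCNK5 was at 7.27, 7.28 and 7.11 CPM in KO-labelled and at 8.50, 8.02 and 7.58 CPM in parental libraries, a difference that was not called (-0.15, SE 0.076) but was called with DESeq2's size factors and without parental DMSO replicate 3 or parental neratinib replicate 1 or 3. KCNK5 fell with neratinib by 0.57 (SE 0.085) in KO-labelled and 1.34 (SE 0.090) in parental cells. WFS1, an endoplasmic reticulum membrane protein, was at 42.4, 39.8 and 38.3 CPM in KO-labelled neratinib and at 29.1, 32.3 and 32.5 CPM in parental neratinib libraries. It was at 67.9, 70.5 and 70.2 CPM in KO-labelled DMSO and at 50.2, 51.1 and 48.8 CPM in parental DMSO libraries. WFS1 was higher in KO-labelled cells by 0.36 (neratinib) and 0.47 (DMSO) on the log2 scale and fell with the drug by 0.79 and 0.68, KO-labelled and parental. The calls of these 3 genes had an adjusted p of 0.00399 or less in edgeR's quasi-likelihood test.

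The zinc transporter gene SLC39A6 was at 129.7 ± 3.47 CPM in KO-labelled and 247 ± 0.966 CPM in parental cells in neratinib, and at 152 ± 1.27 and 221 ± 5.57 CPM in DMSO (SD, n = 3 each). Its neratinib response was a fall of 0.22 in KO-labelled cells and a rise of 0.16 in parental cells, with a difference between them of -0.39 (SE 0.030) on the log2 scale. ABCA3, a lipid transporter, showed the opposite, a rise of 0.19 in KO-labelled and a fall of 0.22 in parental cells, with a difference of 0.42 (SE 0.053). Each of these had an adjusted p of 9.12e-06 or less in edgeR's quasi-likelihood test. IL6ST, the shared signalling receptor of interleukin-6 and its relatives, was lower in KO-labelled cells by 0.38 (neratinib) and 0.41 (DMSO) and rose with neratinib by 0.31 and 0.28, KO-labelled and parental. The planar polarity cadherins differed from each other. CELSR2 was lower in KO-labelled cells by 0.30 (neratinib) and 0.71 (DMSO), and CELSR1 higher by 0.13 and 0.085. PDZK1, a scaffold protein of transporters, had 15 to 27 counts per library in KO-labelled neratinib, 21 to 31 in parental neratinib, 10 to 19 in KO-labelled DMSO and 27 to 30 in parental DMSO cells. It was lower in KO-labelled cells in DMSO (-0.98, SE 0.27), and its other pairwise differences were not called. The calls named for IL6ST, CELSR1, CELSR2 and PDZK1 had an adjusted p of 0.00142 or less in edgeR's quasi-likelihood test.

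The serine protease inhibitor genes SERPINA1 and SERPINA3, 222 kb apart on chromosome 14, were the third pair of related neighbours to differ in sign. Unrelated neighbours did not always differ. RARA and IGFBP4, 85.8 kb apart, had negative genotype differences in neratinib (-0.21 and -1.06) and in DMSO (-0.054, not called, and -0.75). MYBL1 and SGK3, 53.3 kb apart, were both lower in KO-labelled cells in neratinib (-0.49 and -2.24), but in DMSO they had 0.11 (not called) and -1.42. SERPINA1, which encodes alpha-1-antitrypsin, was at 61.8, 61.8 and 63.7 CPM in KO-labelled neratinib and at 17.2, 15.9 and 16.9 CPM in parental neratinib libraries. In DMSO it was at 64.3, 63.4 and 62.8 CPM in KO-labelled and at 17.2, 16.1 and 17.7 CPM in parental libraries. It was higher in every KO-labelled library than in any parental one, and the 2 treatments overlapped within each genotype. The log2 fold changes of SERPINA1, KO-labelled over parental, were 1.90 (SE 0.037) in neratinib and 1.90 (SE 0.037) in DMSO, and its responses to neratinib, -0.025 (SE 0.030) in KO-labelled and -0.023 (SE 0.047) in parental cells, were not called. SERPINA3, which encodes alpha-1-antichymotrypsin, was at 2.51, 2.34 and 2.88 CPM in KO-labelled neratinib and at 8.01, 6.58 and 7.14 CPM in parental neratinib libraries. In DMSO SERPINA3 was at 2.76, 2.80 and 3.0 CPM in KO-labelled and at 8.25, 9.77 and 9.16 CPM in parental libraries. It was lower in KO-labelled cells, with log2 fold changes of -1.51 (SE 0.10) and -1.67 (SE 0.095) in neratinib and DMSO. Of its merged exon bases, 31.8% also belong to the annotated gene AL049839.2 on the same strand, so reads there cannot be assigned to one of them. The genotype differences of both genes had an adjusted p of 2.97e-17 or less in edgeR's quasi-likelihood test. Their windows, chr14:94390586-94390885 on the minus strand for SERPINA1 and chr14:94612141-94612440 on the plus strand for SERPINA3 (GRCh38.p14, RefSeq), are shown 5′ to 3′, since both hold GGTCA half-sites (either strand, in capitals) while the genes changed in opposite directions.
SERPINA1: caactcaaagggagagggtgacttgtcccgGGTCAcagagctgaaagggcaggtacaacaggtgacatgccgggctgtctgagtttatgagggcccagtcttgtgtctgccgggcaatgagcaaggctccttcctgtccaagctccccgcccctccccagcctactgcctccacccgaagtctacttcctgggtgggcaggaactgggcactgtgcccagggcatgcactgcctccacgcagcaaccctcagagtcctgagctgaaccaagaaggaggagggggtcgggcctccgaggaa
SERPINA3: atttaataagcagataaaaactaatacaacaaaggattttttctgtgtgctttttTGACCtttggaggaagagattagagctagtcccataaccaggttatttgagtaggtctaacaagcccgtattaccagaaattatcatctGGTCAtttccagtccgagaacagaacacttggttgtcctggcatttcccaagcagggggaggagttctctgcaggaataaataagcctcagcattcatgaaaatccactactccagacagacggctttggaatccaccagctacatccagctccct
SERPINA1 held a half-site that begins 220 bases before the start, and SERPINA3 held 2, at 195 and 106 bases before it.

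Among the other secreted proteins, TSKU, a leucine-rich proteoglycan, fell both in KO-labelled cells and with neratinib. TSKU was at 12.6, 14.1 and 13.5 CPM in KO-labelled neratinib and at 49.4, 50.3 and 48.6 CPM in parental neratinib libraries. In DMSO it was at 53.6, 54.2 and 55.3 CPM in KO-labelled and at 103, 99.7 and 98.0 CPM in parental libraries. KO-labelled cells in DMSO were near parental cells in neratinib, and the KO-labelled neratinib group lay far under both. The log2 fold changes were -1.88 (SE 0.041) and -0.88 (SE 0.029) between genotypes (neratinib and DMSO), and -2.02 (SE 0.041) and -1.02 (SE 0.029) with neratinib (KO-labelled and parental). IGFBP4, a binding protein of insulin-like growth factors, was at 26.7 ± 1.57 CPM in KO-labelled and 55.7 ± 1.30 CPM in parental cells in neratinib, and at 51.3 ± 1.06 and 86.5 ± 0.571 CPM in DMSO (SD, n = 3 each). It fell in all 4 pairwise comparisons, with log2 fold changes between -1.06 and -0.64. PRSS23, a secreted serine protease, was at 29, 28.8 and 28.7 CPM in KO-labelled neratinib and at 27.6, 25.9 and 28.3 CPM in parental neratinib libraries. In DMSO PRSS23 was at 79.1, 73.1 and 73.1 CPM in KO-labelled and at 99.2, 98.4 and 99.0 CPM in parental libraries. It fell with neratinib by 1.38 (SE 0.035) in KO-labelled and 1.86 (SE 0.034) in parental cells, and 11.9% of its exon bases are shared with FZD4 on the other strand. The calls of TSKU, IGFBP4 and PRSS23 with neratinib had an adjusted p of 2.68e-23 or less in edgeR's quasi-likelihood test.

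CCN5 and OLFM1 were higher in KO-labelled cells, as SERPINA1 was. CCN5, a matricellular protein gene, was at 1.36, 1.44 and 1.03 CPM in KO-labelled neratinib and at 0.262, 0.332 and 0.390 CPM in parental neratinib libraries. In DMSO it was at 1.32, 1.14 and 1.23 CPM in KO-labelled and at 0.428, 0.322 and 0.422 CPM in parental libraries. These values rest on 40 to 52 counts per KO-labelled DMSO library and 12 to 17 per parental DMSO library, and the genotypes did not overlap under either treatment. The log2 fold changes of CCN5 were 1.98 (SE 0.25) in neratinib and 1.64 (SE 0.24) in DMSO, and its responses to neratinib were not called. OLFM1, a secreted glycoprotein gene, was at 21.2, 21.7 and 22.6 CPM in KO-labelled neratinib and at 12.2, 11.1 and 12.7 CPM in parental neratinib libraries. In DMSO OLFM1 was at 31.4, 32.2 and 31.9 CPM in KO-labelled and at 18.8, 17.9 and 17.2 CPM in parental libraries. OLFM1 was higher in KO-labelled cells by 0.86 and 0.82 (neratinib and DMSO, log2) and fell with neratinib by 0.54 and 0.58 (KO-labelled and parental). The calls of CCN5 and OLFM1 had an adjusted p of 6.17e-08 or less in edgeR's quasi-likelihood test. The chemokine gene CXCL12, between 1.95 and 4.18 CPM, was the sole member with no genotype difference called under either treatment (0.035, SE 0.16 in neratinib and -0.16 (SE 0.12) in DMSO). It fell with neratinib by 0.92 in KO-labelled and 1.11 in parental cells. In DMSO the genotype difference of CXCL12 was called without parental DMSO replicate 1 (log2 fold change -0.28).

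Of the 9 genes of intracellular signalling and traffic, 8 were lower and 1 was higher in KO-labelled cells in DMSO (all genes 35.6% and 36%), and 7 were lower and 1 higher in neratinib (all genes 36.9% and 34.7%). ADCY9, an adenylate cyclase, was at 1.95, 1.96 and 1.93 CPM in KO-labelled neratinib and at 4.65, 4.92 and 5.40 CPM in parental neratinib libraries. In DMSO ADCY9 was at 4.38, 5.0 and 4.51 CPM in KO-labelled and at 13.8, 14.0 and 14.5 CPM in parental libraries. It fell more than 2-fold in every pairwise comparison, with log2 fold changes between genotypes of -1.35 (SE 0.11) and -1.60 (SE 0.072) (neratinib and DMSO) and with neratinib of -1.25 (SE 0.11) and -1.5 (SE 0.071) (KO-labelled and parental). SGK3, a kinase related to AKT, was at 0.414, 0.236 and 0.307 CPM in KO-labelled neratinib and at 1.53, 1.33 and 1.58 CPM in parental neratinib libraries. It was at 0.329, 0.273 and 0.245 CPM in KO-labelled DMSO and at 0.604, 0.886 and 0.818 CPM in parental DMSO libraries, on 8 to 13 and 24 to 33 counts per library. SGK3 was lower in KO-labelled cells without overlap, by 2.24 (SE 0.24) in neratinib and 1.42 (SE 0.29) in DMSO, and rose with neratinib in parental cells by 0.95 (SE 0.20). RERG, a RAS-like growth inhibitor, was at 5.12, 4.99 and 5.95 CPM in KO-labelled neratinib and at 6.85, 6.74 and 6.75 CPM in parental neratinib libraries. In DMSO RERG was at 15.3, 16.0 and 16.2 CPM in KO-labelled and at 13.3, 14.2 and 14.8 CPM in parental libraries. It fell with neratinib by 1.57 (SE 0.069) in KO-labelled and 1.06 (SE 0.066) in parental cells. Its genotype difference was -0.35 (SE 0.082) in neratinib and 0.17 (SE 0.056) in DMSO, and the DMSO difference was not called with DESeq2 or without parental DMSO replicate 1. All calls named for the 3 genes had an adjusted p of 0.00728 or less in edgeR's quasi-likelihood test.

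RAB31, a vesicle GTPase, was the only member that neratinib raised at least 2-fold in KO-labelled cells. It was at 3.46, 3.92 and 3.46 CPM in KO-labelled neratinib and at 3.71, 3.29 and 3.35 CPM in parental neratinib libraries, which overlapped. In DMSO RAB31 was at 1.52, 1.30 and 1.5 CPM in KO-labelled and at 2.14, 2.60 and 2.24 CPM in parental libraries. RAB31 rose with neratinib by 1.34 (SE 0.13) in KO-labelled and 0.58 (SE 0.12) in parental cells, and it was lower in KO-labelled cells in DMSO (-0.70, SE 0.14). MREG, a melanosome transport protein, was at 14.0, 13.5 and 12.7 CPM in KO-labelled neratinib and at 27.2, 27.7 and 26.5 CPM in parental neratinib libraries. In DMSO MREG was at 18.1, 18.3 and 16.8 CPM in KO-labelled and at 26.7, 25.9 and 26.9 CPM in parental libraries. It fell with neratinib in KO-labelled cells (-0.41, SE 0.052) and was not called in parental cells (0.031, SE 0.042). MAPT, which encodes the microtubule protein tau, was at 56.5, 54.3 and 53.7 CPM in KO-labelled neratinib and at 45.4, 45.6 and 45.3 CPM in parental neratinib libraries. In DMSO MAPT was at 35.2, 35.4 and 36.0 CPM in KO-labelled and at 40.0, 40.6 and 39.5 CPM in parental libraries. It was 0.27 (SE 0.030) higher in KO-labelled cells in neratinib and lower in DMSO (-0.17, SE 0.033), and rose with the drug by 0.63 and 0.18 (KO-labelled and parental). The ubiquitin ligase gene SIAH2 was lower in KO-labelled cells by 0.32 and 0.23 (neratinib and DMSO) and rose with neratinib by 0.18 and 0.28 (KO-labelled and parental). PKIB, an inhibitor of protein kinase A, was lower in KO-labelled cells by 0.17 and 0.16 and fell with neratinib by 1.02 and 1.02. The calls named in these sentences had an adjusted p of 0.0051 or less in edgeR's quasi-likelihood test. TPD52L1, a vesicle trafficking protein, was lower in KO-labelled cells in DMSO (-0.39, SE 0.031, adjusted p = 7.96e-15 in edgeR's quasi-likelihood test) and fell with neratinib by 0.51 and 0.82. Its genotype difference in neratinib, -0.080 (SE 0.037) with overlapping groups, had adjusted p = 0.0499 in edgeR's quasi-likelihood test and was lost under most alternatives.

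The 3 lipid enzymes were called lower with neratinib in parental cells, as were 38.9% of all genes. DEGS2, a sphingolipid hydroxylase and desaturase, was at 43.5, 39.3 and 39.8 CPM in KO-labelled neratinib and at 38.8, 41.2 and 39.8 CPM in parental neratinib libraries, which overlapped. In DMSO DEGS2 was at 113, 115 and 116 CPM in KO-labelled and at 80.0, 86.1 and 81.5 CPM in parental libraries. It fell by 1.49 (SE 0.032) in KO-labelled and 1.05 (SE 0.033) in parental cells and was higher in KO-labelled cells in DMSO by 0.47 (SE 0.029). ELOVL2, an elongase of polyunsaturated fatty acids, was at 0.325, 0.260 and 0.112 CPM in KO-labelled neratinib and at 0.545, 0.423 and 0.727 CPM in parental neratinib libraries. In DMSO ELOVL2 was at 0.279, 0.250 and 0.521 CPM in KO-labelled and at 0.906, 0.966 and 0.950 CPM in parental libraries, all of it low. It was lower in KO-labelled cells by 1.28 (SE 0.35) in neratinib and 1.47 (SE 0.29) in DMSO, and its fall with neratinib was called in parental cells (-0.72, SE 0.25) but not in KO-labelled cells (-0.53, SE 0.39). The call in parental cells was lost without parental neratinib replicate 2, where the log2 fold change was -0.58. CHPT1, which makes phosphatidylcholine, fell with neratinib by 0.37 and 0.19 (KO-labelled and parental). The calls of the 3 genes had an adjusted p of 0.00917 or less in edgeR's quasi-likelihood test.

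The genotype differences in neratinib and in DMSO, which share no library, had the same sign in 26 of the 30 members called in both, with 17 lower and 9 higher in KO-labelled cells. Over all genes called in both, 88.7% had the same sign, so the members' 86.7% is near what the table shows in general. The 17 were ADCY9, AGR2, CELSR2, ELOVL2, GREB1, IGFBP4, IL6ST, MREG, PKIB, SERPINA3, SGK3, SIAH2, SLC39A6, SUSD3, TFF1, TPD52L1 and TSKU. The 9 were AGR3, CA12, CCN5, CELSR1, OLFM1, SERPINA1, TFF3, TIPARP and WFS1. MYB and RERG were lower in KO-labelled cells in neratinib and higher in DMSO, and MAPT and P2RY2 the reverse. The neratinib responses of KO-labelled and of parental cells, which also share no library, had the same sign in 30 of the 33 members called in both, 23 falling and 7 rising. This share, 90.9%, was below the 95.3% over all genes, and no test was made of that difference. Among the 23, CELSR1 changed sign in KO-labelled cells when genes under a mean of 5 CPM were left out. The 7 that rose in both genotypes were GREB1, IL6ST, MAPT, NRIP1, RAB31, SIAH2 and TIPARP. SLC39A6, ABCA3 and AGR3 moved oppositely in the genotypes, and CCN5, PDZK1 and SERPINA1 were not called in either.

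**Figure D3:**
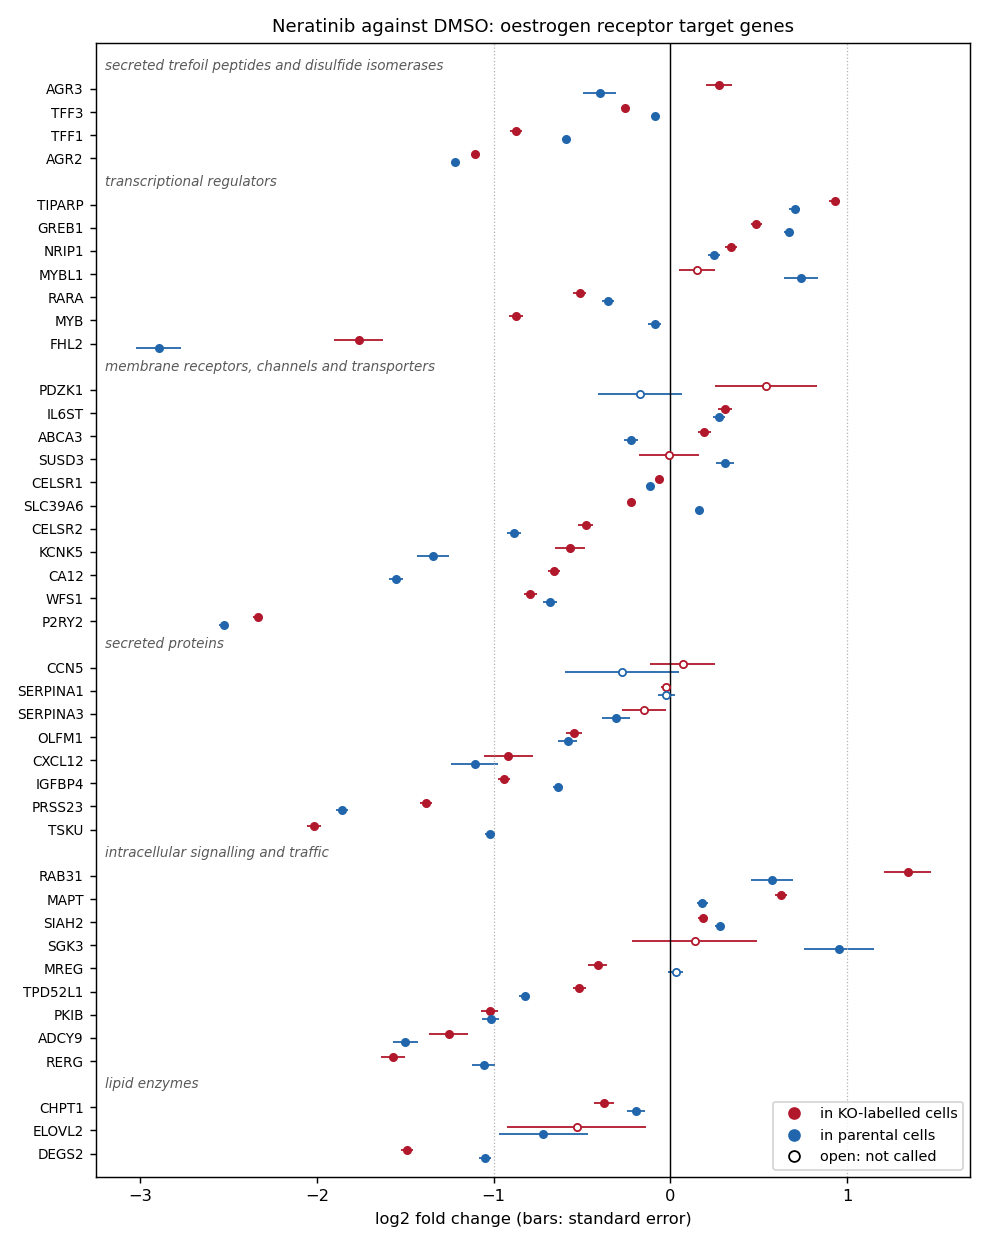
Log2 fold change of neratinib over DMSO for the 42 genes (x axis), ordered by role, with red points for KO-labelled cells, blue points for parental cells, bars for the standard error and open points for differences that were not called. FHL2 at -2.89 and P2RY2 at -2.53 lie farthest to the left in parental cells, and RAB31 at 1.34 farthest to the right in KO-labelled cells.

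Whether neratinib acted differently in KO-labelled cells was tested by subtracting the log2 response of the parental line. Of the 42 genes, 13 had a positive and 14 a negative difference at any size (64.3%, against 46.1% of all genes, 21.5% positive and 24.6% negative). Only FHL2 passed 2-fold (2.38%, against 3.27%, 1.48% positive and 1.79% negative), with a fall that was shallower in KO-labelled cells by 1.13 (SE 0.22). The other 4 of the 5 largest called positive differences were those of CA12 (0.89, SE 0.052), KCNK5 (0.78, SE 0.13), RAB31 (0.77, SE 0.18) and AGR3. The 5 largest called negative ones were those of TSKU (-1.0, SE 0.052), MYB (-0.78, SE 0.053), MYBL1 (-0.59, SE 0.14), RERG (-0.51, SE 0.099) and MREG (-0.44, SE 0.067). These 10 had an adjusted p of 0.000549 or less in edgeR's quasi-likelihood test. TFF1, GREB1, ESR1 and PGR also had negative differences, of -0.28, -0.18, -0.36 and -0.15 (adjusted p of 0.00248 or less in edgeR's quasi-likelihood test). Tested against a difference of 1.5-fold instead of 0 with edgeR's glmTreat, which called 2.17% of all genes (1.1% positive and 1.07% negative), 3 members passed, namely TSKU, CA12 and MYB. TSKU and MYB fell further in KO-labelled cells, whereas CA12 fell less there than in parental cells.

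**Figure D4:**
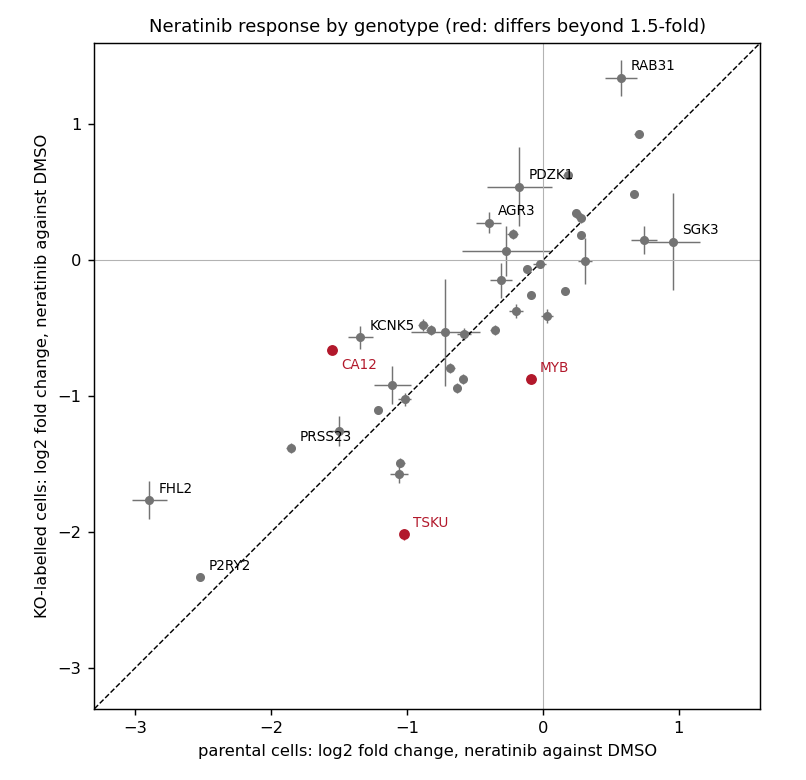
Log2 fold change of neratinib over DMSO in KO-labelled cells (y axis) against that in parental cells (x axis) for the 42 genes, with standard errors as bars and the line of equal response dashed. The 3 red genes differed between genotypes beyond 1.5-fold: CA12 lies above the line, and TSKU and MYB below it.

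Other genes of the oestrogen response were read from a list of 154 symbols that holds no member, all found in the table and 147 tested. In KO-labelled cells in DMSO, 12 of the 147 were at least 2-fold lower and 7 at least 2-fold higher (12.9%, against 12.4% of all genes, 3.46% lower and 8.89% higher), with a median log2 fold change of 0.022. Lower genes thus outnumbered higher ones at 2-fold in DMSO in this list, as among the members, while over all genes higher ones did. At any size the list went the other way from the members. In DMSO 55 were called lower and 64 higher (37.4% and 43.5%, against 35.6% and 36% of all genes). In neratinib 55 were lower and 66 higher (37.4% and 44.9%, against 36.9% and 34.7%). The median of this list in DMSO was not below 0, whereas that of the members was -0.17. Genes are ranked here only where they were called and had a mean of at least 1 CPM in 1 of the groups compared. The largest such falls were those of GFRA1, KLK10 and MYC (log2 fold changes -5.07, -3.96 and -2.72), and the largest rises those of PTGES, HR and CLIC3 (2.66, 2.26 and 2.05). GFRA1 rests on 2 to 3 and KLK10 on 2 to 4 counts per KO-labelled DMSO library, against 82 to 113 and 41 to 53 per parental DMSO library, so the sizes of these falls are uncertain. The same 6 genes led in neratinib, where 11 genes were at least 2-fold lower and 12 higher (15.6%, against 11.2%, 3.25% lower and 7.92% higher), with HR at 2.32, CLIC3 at 2.26, PTGES at 2.0, KLK10 at -5.26 (on 1 to 4 counts per KO-labelled library), GFRA1 at -3.44 and MYC at -2.78. With neratinib 23 fell and 5 rose at least 2-fold in KO-labelled cells (19%, against 14.7%, 5.3% lower and 9.42% higher), and 29 fell and 17 rose in parental cells (31.3%, against 20.8%, 7.78% lower and 13% higher). CCND1, STC2 and BHLHE40 fell most in KO-labelled cells (-3.21, -2.28 and -2.0), and IGF1R, HSPB8 and MINDY1 rose most (2.68, 2.04 and 2.01) among genes of at least 1 CPM. GFRA1, below that level in KO-labelled cells under both treatments, had a larger fold change of 2.88 (SE 0.46), on 16 to 23 counts per library in neratinib against 2 to 3 in DMSO. In parental cells CCND1, SYT12 and LAD1 fell most (-3.74, -2.73 and -2.52), and MINDY1, IGF1R and RETREG1 rose most (2.40, 2.25 and 1.86). The responses differed most between genotypes for NAV2, GFRA1 and AQP3 (1.71, 1.63 and 1.51) and, with the other sign, for DHRS3, RETREG1 and PEX11A (-1.15, -0.91 and -0.85). All named differences had an adjusted p of 0.00767 or less in edgeR's quasi-likelihood test. Of 24 receptor and cofactor genes, 12 were lower and 8 higher in KO-labelled cells in DMSO, against 35.6% and 36% of all genes, and 11 lower and 10 higher in neratinib, against 36.9% and 34.7%. Past 2-fold were PGR under both treatments, GPER1 in DMSO and GATA3 in neratinib. GPER1, a membrane oestrogen receptor, and the pioneer factor genes GATA3 and FOXA1 were chosen for mention after their values were seen. GATA3 was at 171 ± 2.92 CPM in KO-labelled and 389 ± 15.8 CPM in parental cells in neratinib, and at 249.7 ± 11.6 and 434 ± 19.1 CPM in DMSO (SD, n = 3 each). Its log2 fold changes were -1.18 (SE 0.028) in neratinib and -0.80 (SE 0.027) in DMSO, and those of FOXA1 were -0.75 (SE 0.019) and -0.42 (SE 0.018), all with an adjusted p of 5.82e-24 or less in edgeR's quasi-likelihood test. GPER1 was at 16.0 ± 0.689 CPM in KO-labelled and 10.5 ± 0.572 CPM in parental cells in neratinib, and at 27.4 ± 0.728 and 6.14 ± 0.347 CPM in DMSO (SD, n = 3 each).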

How the data were processed

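Polyadenylated RNA libraries (TruSeq RNA v2, which does not mark strand) were sequenced as single reads of 50 bases, per the labels' protocols. The authors deposited raw read counts per gene. FastQC 0.11.7, STAR 2.7.9, edgeR 3.40.2 and GRCh38 are named in the submitters' processing notes. The counting program, annotation and strand setting are not given in the sources used here, so reads of 16 members whose exons overlap another gene cannot be separated from that gene's. Of 28395 lines, 581 without a symbol (0.0877% to 0.124% of counts) were left out.

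Counts were filtered with filterByExpr, scaled by TMM and fitted with edgeR 4.0.16 (R 4.3.3), as a quasi-likelihood model of 4 group means over 12 libraries with 8 residual degrees of freedom. The threshold was an adjusted p of 0.05 (Benjamini-Hochberg over 16208 genes). DESeq2 1.42.0 was an alternative. Replicates differed by more than sampling noise (chi-square per degree of freedom 1.37 to 3.57) and were kept apart. Counts of the DMSO genotype comparison were also simulated, with 200 of 16208 genes changed. There 74% of 1.25-fold, 98% of 1.5-fold and 100% of 2-fold changes were recovered, with 11 false calls in 197. In the data themselves 71.6% of genes were called in that comparison, so these rates may not hold for them. The members and lists were chosen with earlier results of these data known. Library values are given for TFF1, GREB1 and, in each comparison, the 5 called members with the largest rise and the 5 with the largest fall; of the other oestrogen-response genes, the 3 of each are named. ESR1, PGR, BRD8, DUSP6 and CCND1 are named in addition.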

Additional observations from a re-analysis of the deposited data

Results flagged for a closer look

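For 3 genes the response to neratinib differed between genotypes by more than 1.5-fold, as tested with edgeR's glmTreat and Benjamini-Hochberg adjustment over all genes. TSKU had a log2 fold change of -2.02 in KO-labelled and -1.02 in parental cells, a difference of -1.0 (SE 0.052, adjusted p = 1.75e-08, edgeR). CA12 had -0.66 in KO-labelled and -1.55 in parental cells, a difference of 0.89 (SE 0.052, adjusted p = 4.21e-06, edgeR). MYB had -0.87 in KO-labelled and -0.088 in parental cells, a difference of -0.78 (SE 0.053, adjusted p = 0.00311, edgeR). In TMM-scaled CPM, the libraries of compared groups did not overlap for any of the 3 genes. The same values chose these genes, so this adds no separate evidence, and the share of all genes without overlap was not computed. With library totals alone, the MYB change in parental cells was -0.0089 on the log2 scale and was not called.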

How the results depend on the processing

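Counts of members called at any size stayed within 1.5 times the main count under all 18 alternatives: DESeq2, its size factors, library totals, no filter, a mean of at least 5 CPM, a replicate block and leaving out each library. The filter at 5 CPM, which tests fewer genes and also shifts the scaling, moved the counts at 2-fold (main counts in parentheses). Under this filter the log2 fold change of TFF3 with neratinib in parental cells went from -0.085 to -0.025. In DMSO the filter left 1 (2) member higher in KO-labelled cells, with 383 (1441) genes higher and 166 (561) lower in the whole table. In neratinib it left 371 (1284) genes higher and 143 (526) lower. For neratinib in KO-labelled cells it left 0 (1) members up, and 569 (1526) genes up and 422 (859) down in all. In parental cells it left 6 (12) members down, and 798 (2111) genes up and 659 (1261) down in all. The main falls of TSKU (-1.02), PKIB (-1.02), RERG (-1.06) and DEGS2 (-1.05) there lay close to 2-fold. For the difference of responses the filter left 0 (1) members and 56 (240) genes positive and 45 (290) genes negative. Members raised at least 2-fold by neratinib in parental cells, 0 of them with all libraries (edgeR; 11 at any size), numbered 1 with library totals and 0 to 1 without single libraries (1 without parental DMSO or parental neratinib replicate 2). Negative differences of response of at least 2-fold numbered 1 with library totals, 1 with no filter and 0 to 1 without single libraries (1 without parental DMSO replicate 1 or KO-labelled neratinib replicate 2). Of 3740 member values under alternatives, 44 lost a call, 19 gained one and 1 changed sign, CELSR1 with neratinib in KO-labelled cells at a mean of 5 CPM (0.000326).

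Same-numbered libraries of different groups did not deviate together (correlations of -0.021 to 0.041 over 18 pairs, and 6 of 12 libraries correlated best with their own number). The labels state no block, and the main model had none. With 3 libraries a group, these correlations cannot exclude a shared preparation. With the replicate number as a block, 24 members were lower and 12 higher in KO-labelled cells in DMSO, and 21 and 13 in neratinib. With neratinib 25 fell and 9 rose in KO-labelled cells and 27 fell and 11 rose in parental cells. Depth limits PDZK1, ELOVL2, SGK3 and CCN5, whose standard errors were the widest.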

Other observations

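Per kilobase of merged exon (GENCODE 29), TFF3, AGR2 and TFF1 held the highest levels of the 42 genes in parental DMSO cells. TFF3 was at 429 ± 4.19 CPM per kb in KO-labelled and 369 ± 6.67 in parental neratinib cells, and at 512 ± 11.8 in KO-labelled and 391 ± 10.7 in parental DMSO cells (SD, n = 3 each). AGR2 was at 112 ± 0.198 and 162 ± 3.01 CPM per kb in neratinib (KO-labelled and parental), and at 241 ± 5.19 and 377 ± 4.0 in DMSO. TFF1 was at 41.8 ± 1.38 and 222 ± 4.29 CPM per kb in neratinib, and at 76.4 ± 1.76 and 335 ± 2.18 in DMSO. The order of TFF3 and TFF1 was the same in every group, but the distance between them was far wider in KO-labelled cells. In KO-labelled DMSO cells P2RY2, at 83.5 ± 0.397 CPM per kb, lay above TFF1.

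The members lie on 20 chromosomes. For each, the median log2 fold change of the 20 nearest tested protein-coding genes, 10 on either side with members left out, was set beside its own. Between genotypes in DMSO these neighbour medians ran from -0.40 to 0.41, and 38 of the 42 genes moved further than their neighbours' median. Rises and falls cancel in such a median, so a single gene easily exceeds it. The share over all genes was not computed, and the count therefore says little about the members. SUSD3, at -4.0, had neighbours at -0.12, and TFF1, at -2.13, had neighbours at -0.024. PRSS23 and DEGS2, in contrast, moved like their neighbours in DMSO. PRSS23 had -0.40 and its neighbours -0.40, and DEGS2 had 0.47 and its neighbours 0.41. Between genotypes in neratinib this did not hold, with PRSS23 at 0.078 against -0.36 and DEGS2 at 0.034 against 0.31. SERPINA1 and SERPINA3 lie among genes with positive medians in DMSO, 0.22 and 0.38, and SERPINA3 had the opposite sign.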
